A study of Rattus norvegicus with 9 samples.

Results

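The matrix metalloproteinase (MMP) and TIMP transcripts of rat liver were followed through carbon tetrachloride (CCl4) fibrosis and tormentic acid (TA) treatment. The 10 genes were taken by symbol from the 16730 genes with a count entry, with or without reads, for every library. They comprised 7 enzymes (Mmp2, Mmp7, Mmp9, Mmp12, Mmp13, Mmp14 and Mmp19) and 3 inhibitors (Timp1, Timp2 and Timp3). Bulk polyA RNA of male Sprague-Dawley rat liver was sequenced in 9 libraries, with 3 in each of the normal control, model and TA groups. The model and TA groups both received CCl4 by gavage at 2 ml/kg as a 50% solution in oil over 9 weeks, and the TA group then received TA, a plant triterpenoid, at 3 mg/kg for 6 weeks. The normal control group was given saline, and all groups were fasted for 12 h before the liver was taken. The labels describe the model and TA livers as being at the hepatitis stage, number the TA libraries without a dose, and do not give the age of the rats. They also do not say that each library came from a separate rat, so the p-values measure the spread between these samples. Below, a library is also called a liver.

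MMPs are zinc-dependent proteases that cut collagens, elastin and other matrix proteins outside the cell, and most are made as inactive precursors. TIMPs bind the active site of MMPs and block it. In fibrotic liver, the gelatinase Mmp2 and the inhibitors Timp1 and Timp2 are known as products of activated hepatic stellate cells, while Mmp12 is the macrophage elastase, and scar is thought to persist where inhibition exceeds degradation.

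The enzymes Mmp12, Mmp7 and Mmp13 belong to a cluster of 10 MMP genes on rat chromosome 8. Mmp12 had the largest fold change of the 8 tested members in the model group, and Mmp7 had reads there but none in the normal control group, while Mmp13, at the opposite end of the cluster from Mmp7, was close to 0 everywhere. Their promoters are shown because these neighbours, so unlike in level, share their letters for the transcription factor AP-1. Each line gives the 150 bases before the start site in RefSeq assembly GRCr8, 5′ to 3′ on the plus strand, with the AP-1 motif TGANTCA in capitals.
Mmp13, chr8:12782679-12782828: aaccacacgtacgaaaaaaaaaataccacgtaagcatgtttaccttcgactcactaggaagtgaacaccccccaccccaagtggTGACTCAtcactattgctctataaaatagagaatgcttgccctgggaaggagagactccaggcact
Mmp12, chr8:12866502-12866651: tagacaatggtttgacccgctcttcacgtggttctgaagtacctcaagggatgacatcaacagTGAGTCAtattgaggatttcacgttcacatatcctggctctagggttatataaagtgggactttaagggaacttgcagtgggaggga
Mmp7, chr8:13132893-13133042: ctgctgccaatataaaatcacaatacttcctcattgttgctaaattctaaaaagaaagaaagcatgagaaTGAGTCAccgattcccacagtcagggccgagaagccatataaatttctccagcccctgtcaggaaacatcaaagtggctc
The AP-1 motif began 66 bases before the start site in Mmp13, 87 in Mmp12 and 80 in Mmp7, and a TATA box (TATAAA) that did not overlap it began nearer to the start, at 47, 39 and 43 bases, with a further one at 140 bases in Mmp7. The promoter table held 6 of the 10 members. On either strand of 300-base promoters, from 250 bases before to 50 after the start, AP-1 letters stood in 7.33% and TATAAA in 14.2% of 33469 rat promoters. By these exact letters Timp1, Timp2 and Timp3 held neither motif, and each held a GC box (GGGCGG, in 33.1% of promoters). Variants of the motifs were not searched for, and Timp1 held TGAGTAA, which differs from the AP-1 letters at a single base. The absence of the exact letters therefore does not show that the Timp promoters lack AP-1 sites. The letters are a description and were not tested for binding.

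The deposited counts came to between 13156735 and 18090405 reads per library. Levels are given as counts per 1000000 reads of the library (CPM) after scaling the libraries by the trimmed mean of M values (TMM). Model replicate 1 stood apart, with 27.9% of its reads on its 50 most abundant genes against 40.4% to 45.7% in the other 8 libraries, so results are also given without it. Timp1 lies within Syn1 and Timp3 within Syn3, but Syn1 had at most 35 reads and Syn3 at most 20 in any library.

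Model VS Normal addressed what chronic CCl4 had done to the liver. The gelatinase Mmp2, the elastase Mmp12 and the inhibitors Timp1 and Timp3 rose in the model group, by 16.0-fold, 68.2-fold, 17.2-fold and 3.48-fold, so that enzymes and inhibitors rose side by side. These 4 of the 10 members passed an adjusted p of 0.05 in edgeR's quasi-likelihood test with Benjamini-Hochberg adjustment over 12730 genes, against 6.86% of the genes tested that were called higher. At the thresholds the study used, a log2 fold change beyond 1 in size at an unadjusted p under 0.05, 7 of 10 were higher, against 16.6% of the genes tested. The same 7 had every model library above every normal one, against 20.8% of genes. Mmp19 was the tested member outside these 7, and Mmp7 and Mmp13 fell below the filter on low counts and were not tested. The median log2 fold change of the 8 tested members was 2.46, beside 0.02 for all genes. In bulk liver, more cells of a type and more RNA per cell cannot be told apart.

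Mmp2, the gelatinase that cleaves denatured and basement membrane collagen, had 18.4, 9.66 and 6.04 CPM in the normal control group, 375, 70.9 and 97.4 in the model group, and 74.9, 55.5 and 51.8 after TA. Every library of both CCl4-treated groups lay above normal, and TA replicate 1 exceeded model replicate 2. The Model VS Normal log2 fold change of Mmp2 was 4.0 ± 0.75 (SE; adjusted p = 0.0263).

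Mmp9, the other gelatinase, known from neutrophils and macrophages, was scarce, with 0.747, 0.901 and 1.01 CPM in normal, 9.65, 2.50 and 2.48 in model, and 2.14, 1.10 and 0.522 in TA livers. Every model library stood above the other 6, while TA and normal values overlapped. In Model VS Normal the log2 fold change of Mmp9 was 2.46 ± 0.65, with an adjusted p of 0.058 that missed the threshold, and 1.46 (adjusted p = 0.11) without model replicate 1.

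Mmp12 had 0.830, 0.966 and 0.168 CPM in normal livers, 98.9, 28.6 and 10.4 in model livers, and 11, 3.89 and 6.64 in TA livers. Normal livers held 2 to 15 reads of it, and TA replicate 1 reached slightly above model replicate 3. Its Model VS Normal log2 fold change of 6.09 ± 0.98 (adjusted p = 0.0163) was the largest among the 8 tested members.

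Mmp7, matrilysin, an epithelial protease, had no read in the normal libraries, 14, 7 and 3 reads in the model libraries, and 1, 7 and 0 reads in the TA libraries. With the normal group set at 3 reads over its libraries, the model level came to 6.12 times and the TA level to 2.68 times that floor. These are not bounds, since they leave out the counting error of the reads above the floor. The 95% counting limits were 15.4 to 35.7 reads in model, 3.45 to 15.8 in TA and 0 to 3.69 in normal, so TA and normal overlapped. Of the 8 TA reads, 7 were in TA replicate 2, and without that library 1 read remained, under the 3 reads. Mmp13, the collagenase that rodents use on fibrillar collagen, had 3 reads in normal replicate 2, 4 in model replicate 1 and none in the other 7 libraries, and no change was detectable at this depth.

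Mmp14, the membrane-bound enzyme that activates the Mmp2 precursor, had 28.7, 29.2 and 13.8 CPM in normal, 124, 30.5 and 50.9 in model and 55.3, 54.1 and 20.0 in TA livers. Model replicate 2 was barely above the highest normal library, and the TA range overlapped with both groups. For Mmp14 the Model VS Normal log2 fold change was 1.53 ± 0.53 (adjusted p = 0.112), and 0.74 (adjusted p = 0.263) without model replicate 1.

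Mmp19, a secreted enzyme that cuts basement membrane components, had 37.0, 35.7 and 14.8 CPM in normal, 42.1, 18.1 and 22.6 in model and 34.7, 47.5 and 12.9 in TA livers. The 3 groups overlapped throughout, and the lowest value of both the normal and the TA group was in replicate 3. In Model VS Normal, Mmp19 had a log2 fold change of -0.08 (95% interval -1.07 to 0.92), which does not exclude a change of up to about the study's fold threshold either way. Without model replicate 1 it was -0.55 (adjusted p = 0.446).

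Timp1, a secreted inhibitor of most MMPs, had 4.82, 3.54 and 4.45 CPM in normal, 161, 38.8 and 19.2 in model and 19.3, 8.80 and 9.92 in TA livers. The normal values lay close together and below all 6 others, while TA replicate 1 matched model replicate 3. The Model VS Normal log2 fold change of Timp1 was 4.10 ± 0.78 (adjusted p = 0.0265).

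Timp2, which inhibits Mmp2 and also links its precursor to Mmp14, had 22.2, 16.5 and 13.7 CPM in normal, 196, 35.7 and 56.0 in model and 47.4, 29.7 and 41.0 in TA livers. All CCl4-treated livers exceeded all normal ones. Timp2 stood 2.46 ± 0.62 higher on the log2 scale in model than in normal livers, with an adjusted p of 0.051, and without model replicate 1 the fold change was 1.37 and the gene passed (adjusted p = 0.0317).

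Timp3, the inhibitor held in the matrix, which also blocks ADAM proteases, had 5.65, 2.96 and 2.69 CPM in normal, 13.1, 16.2 and 9.90 in model and 8.40, 6.17 and 5.74 in TA livers. The 3 groups did not overlap, and Timp3 was the tested member, Mmp19 included, whose highest model library was not replicate 1. The Model VS Normal log2 fold change of Timp3 was 1.80 ± 0.39 (adjusted p = 0.0352).

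**Figure D1:**
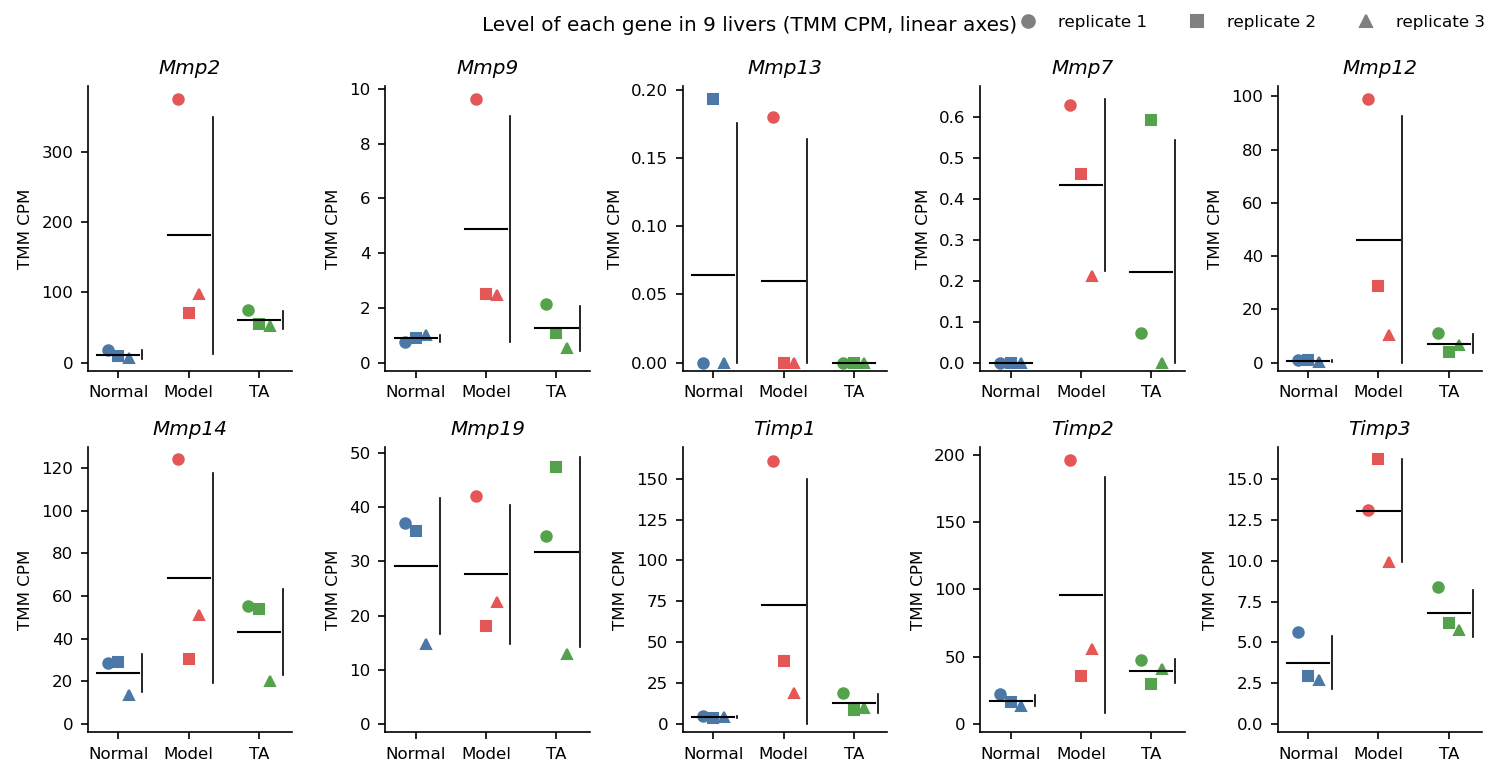
TMM-scaled CPM (linear vertical axes that differ by panel) of the 10 genes in 9 livers, with the group mean as a horizontal line and ± SD as a vertical line clipped at 0 (n = 3). Mmp2, Mmp12, Timp1, Timp2 and, narrowly in the TA group, Timp3 lie above normal in all model and TA livers. Mmp19 overlaps in all groups, and model replicate 1 is the highest point in most panels.

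The calls of Model VS Normal depended on single libraries in different ways. Without model replicate 1, Mmp2 (log2 fold change 2.87), Mmp12 (4.82), Timp1 (2.75) and Timp3 (1.78) still passed, and with Timp2 the count was 5 of 10. Without model replicate 2, Timp3 no longer passed (adjusted p = 0.0822) and Timp2 did, which left 4. Without model replicate 3, Mmp9 and Timp2 were added and the count was 6. The genes called over the whole table numbered 888, 589 and 2537 without model replicate 1, 2 and 3, against 1002 with all libraries. Without normal replicate 1, 2 or 3 the count was 0 in each case, and the genes called over the whole table fell from 1002 to 51, 0 and 0. At the study's thresholds the count was 6 without model replicate 1 or without normal replicate 3, Mmp14 being the gene lost. Genes passing over the whole table in either direction then fell from 2818 to 2061 and 2496. The count of members was 7 when any of the other libraries was left out.

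TA VS Model addressed what TA changed in CCl4-treated rats. No member passed an adjusted p of 0.05, and the share of all 12781 genes that passed was 0%, the smallest adjusted p being 0.23. At an unadjusted p under 0.05, 5 members and 1999 genes passed, and DESeq2 called 2 members, Mmp12 and Timp1, among 541 genes. At the study's thresholds Mmp2, Mmp9, Mmp12 and Timp1 were lower in the TA group, 4 of 10 against 10.2% of the genes tested. The median log2 fold change was -1.43 for the 8 tested members and 0 for all genes.

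The largest differences were in Mmp12, with a log2 fold change of -2.68 ± 0.79 (95% interval -4.51 to -0.84, adjusted p = 0.258), and in Timp1, at -2.53 ± 0.77 (-4.30 to -0.75, adjusted p = 0.258). Mmp9 followed at -1.96 ± 0.74 (adjusted p = 0.286) and Mmp2 at -1.58 ± 0.62 (adjusted p = 0.298). Timp2 was at -1.29 ± 0.61 (adjusted p = 0.343) and Timp3 at -0.94 ± 0.31 (adjusted p = 0.264). Mmp14 was at -0.67 ± 0.58 (adjusted p = 0.566) and Mmp19 at 0.20 ± 0.50 (adjusted p = 0.859). Only Mmp9 and Timp3 had every TA library below every model library, 2 of 10 against 12.8% of genes. With 3 libraries against 3, an exact two-sided permutation test of a single gene cannot go below 0.1.

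These differences rested largely on model replicate 1. Without it the log2 fold change of Mmp12 was -1.42, of Timp1 -1.18, of Mmp9 -0.97, of Mmp2 -0.46 and of Timp2 -0.21, whereas that of Timp3 remained near its value, at -0.93. The count at the study's thresholds was then 2, Mmp12 and Timp1. It was also 2, the same genes, without TA replicate 2, and 1, Mmp12, without TA replicate 3. Over the whole table, genes passing in either direction fell as well. They went from 1571 with all libraries to 792 without model replicate 1, 973 without TA replicate 2 and 1252 without TA replicate 3. The signs of Mmp14 and Mmp19 were not stable, since Mmp14 stood at 0.09 without model replicate 1 and Mmp19 at -0.20 without TA replicate 2. For Mmp7, the TA group had 0.438 times the model level (95% counting interval 0.17 to 1.01, for counting error alone).

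TA VS Normal addressed what still differed from normal after TA. This comparison shares the TA libraries with TA VS Model and the normal libraries with Model VS Normal. Mmp12 was 10.4-fold and Mmp2 5.25-fold above normal in the TA group, Timp1 2.92-fold and Timp2 2.21-fold, and these 4 of 10 members passed the study's thresholds, against 4.24% of 12179 genes. No member passed an adjusted p of 0.05 in edgeR's test without pairing, where 0.230% of genes were called higher and 4 members and 1148 genes had an unadjusted p under 0.05. The adjusted p was 0.0551 for Mmp2, 0.0845 for Mmp12, 0.146 for Timp2 and 0.150 for Timp1, and DESeq2 called all 4.

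The same-numbered normal and TA libraries deviated together. With the replicate number as a block in the fit, Mmp2, Mmp12, Timp1 and Timp2 passed, 4 of 10 against 1.31% of genes. The reason for this block was read from these same libraries, and same-numbered livers are not known to be matched animals. Its calls are therefore a description beside the unpaired test, in which no member passed. Under this replicate block Mmp2 had a log2 fold change of 2.50 (adjusted p = 0.00466), Mmp12 of 3.33 (0.0394), Timp1 of 1.47 (0.0376) and Timp2 of 1.14 (0.0317). Timp3 (log2 fold change 0.82), Mmp14 (0.82), Mmp9 (0.47) and Mmp19 (0.09) did not pass in either fit. Mmp2, Mmp12, Timp1, Timp2 and Timp3 had every TA library above every normal one, 5 of 10 against 9.07% of genes. At the study's thresholds, leaving out 1 library gave counts from 3 to 5, and Mmp2, Mmp12 and Timp1 were among them each time. Genes passing over the whole table in either direction then ranged from 525 to 918, against 640 with all libraries.

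**Figure D2:**
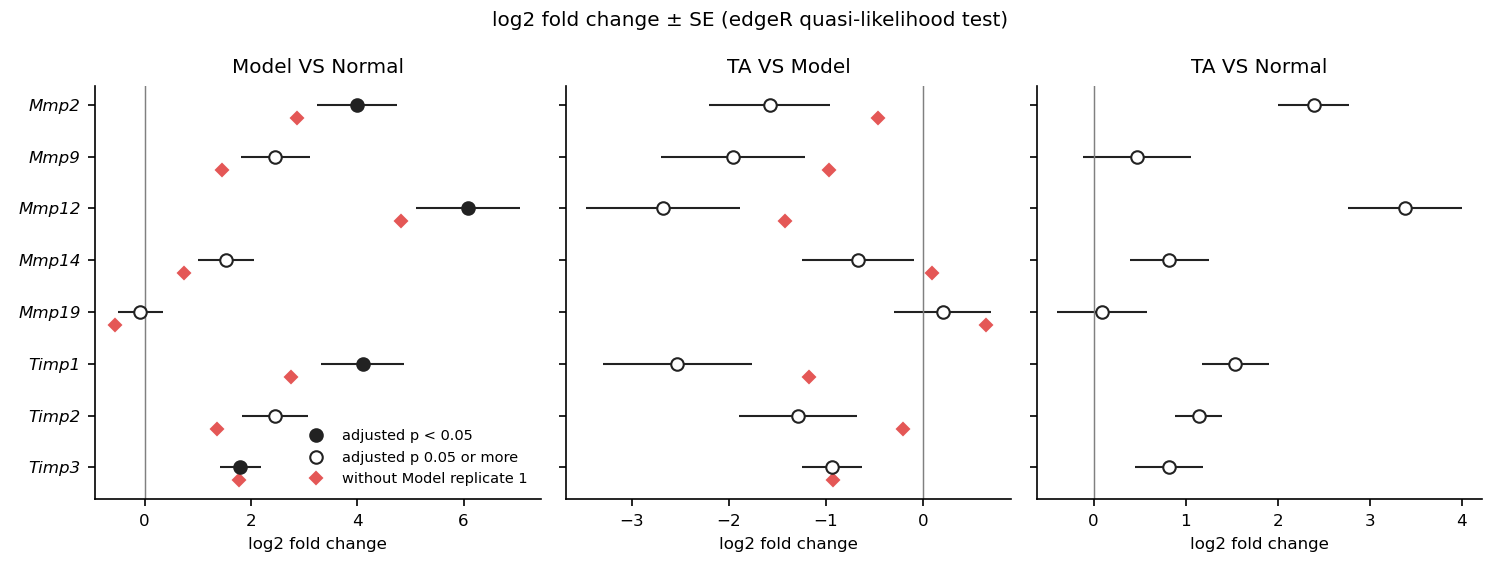
log2 fold change ± SE of the 8 tested genes in the 3 comparisons, with filled circles for an adjusted p under 0.05 in edgeR's unpaired quasi-likelihood test and diamonds for the value without model replicate 1, which does not enter TA VS Normal. In TA VS Model the diamonds of Mmp2, Mmp12, Timp1 and Timp2 lie nearer to 0 than the circles, while those of Timp3 almost coincide.

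The balance of degradation against inhibition was described within each liver from CPM per kilobase of transcript, since levels of different genes can be set side by side only per length. The enzymes summed to 36.9, 33.9 and 15.4 CPM per kilobase in normal, 253, 61.8 and 70.6 in model and 71.3, 67.0 and 35.4 in TA livers. The inhibitors summed to 23.1, 16.4 and 15.8 in normal, 343, 83.2 and 65.3 in model and 59.4, 33.3 and 41.4 in TA livers. Both sums were therefore higher in every model liver than in any normal one. The MMP over TIMP ratio was 1.60, 2.06 and 0.975 in normal, 0.738, 0.743 and 1.08 in model and 1.20, 2.01 and 0.856 in TA livers, and the groups overlapped. Taken by replicate number, it was lower in the TA than in the normal liver in all 3 pairs, with hardly any difference in the second. On the log2 scale it was 0.56 ± 0.55 (SD, n = 3), -0.25 ± 0.32 and 0.35 ± 0.62. The sum is a score over chosen genes and was given no test.

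Single enzyme and inhibitor pairs were set against each other in the same way. The log2 ratio of Mmp2 to Timp2, per kilobase, was -1.63 ± 0.45 in normal livers, 0.02 ± 0.10 in model livers and -0.25 ± 0.28 in TA livers. Thus Mmp2 was the scarcer of the pair in each normal liver, from -2.07 to -1.16, and near parity in the model group, from -0.09 to 0.10, model replicate 1 included. The log2 ratio of Mmp14 to Timp2 went the other way, from -0.15 ± 0.41 in normal to -0.89 ± 0.28 in model livers, with the TA group (-0.54 ± 0.97) across both.

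Mmp12 over Timp1 had a log2 ratio of -4.32 ± 1.5 in normal, -1.95 ± 0.22 in model and -2.13 ± 0.30 in TA livers. Mmp9 over Timp1 was at -4.36 ± 0.37, -5.75 ± 0.61 and -5.56 ± 0.68. So relative to Timp1 the elastase was more abundant, and the gelatinase Mmp9 less abundant, in all CCl4-treated livers than in all normal ones. Among the inhibitors, the log2 ratio of Timp1 to Timp3 was 1.49 ± 0.48 in normal, 3.18 ± 1.5 in model and 2.07 ± 0.35 in TA livers, with model replicate 1 at 4.86.

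Set against the fibrillar collagen transcripts Col1a1 and Col3a1, which encode the main scar collagens, the enzymes were relatively scarce in model livers. The log2 ratio of the summed MMPs to these collagens was -0.39 ± 0.60 in normal, -2.22 ± 0.79 in model and -1.37 ± 0.31 in TA livers. The corresponding ratio of the summed TIMPs was -0.95 ± 0.066, -1.97 ± 0.73 and -1.72 ± 0.34. The TIMP ratio was lower in all CCl4-treated livers than in all normal ones, whereas the MMP ratio of the TA group just overlapped with normal. Within the pairs of replicate number the MMP ratio was lower in the TA liver each time, at -1.52 against -0.32, -1.01 against 0.16 and -1.57 against -1.02.

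**Figure D3:**
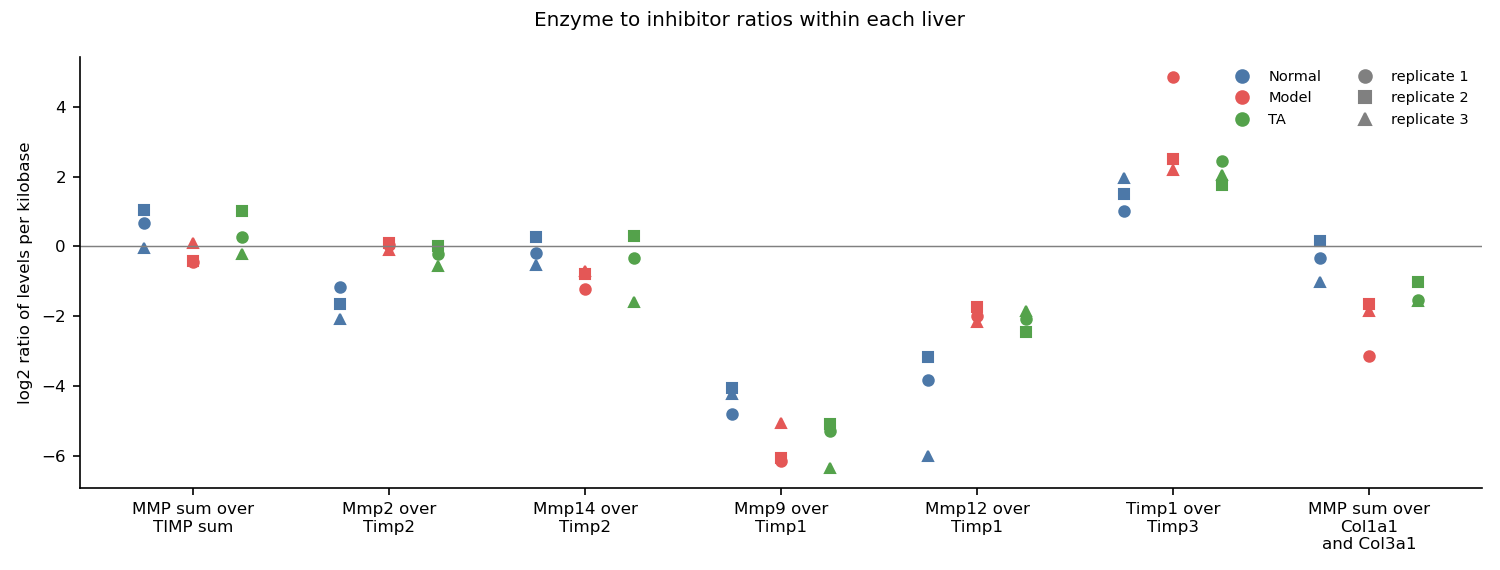
log2 ratios of CPM per kilobase within each of the 9 livers, by group (colour) and replicate (symbol). Mmp2 over Timp2 is below -1 in the normal livers and near 0 in the model livers, whereas the ratio of summed MMPs to summed TIMPs overlaps between groups.

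The make-up of the enzyme pool, meaning the 7 chosen MMPs, also differed between the groups. Other MMPs of similar level are left out of this pool. Mmp15 averaged 29 CPM in normal, 36.8 in model and 27.7 in TA livers, and Mmp24 averaged 14.4, 15.2 and 13.5. Mmp19 averaged 29.2, 27.6 and 31.7 CPM. Mmp19 made up 50.2% ± 2.35 (SD, n = 3) of the summed MMP level per kilobase in normal livers, 12.9% ± 4.07 in model livers and 26.0% ± 8.72 in TA livers. Its own level overlapped in the 3 groups, so its smaller share went with the higher levels of the other enzymes. Mmp2 made up 12.8% ± 3.46 in normal, 43.5% ± 5.59 in model and 36.3% ± 10.5 in TA livers.

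Mmp12 made up 1.15% ± 0.499 of the enzyme sum in normal, 18.6% ± 9.23 in model and 7.46% ± 3.77 in TA livers. Mmp14 went from 34.7% ± 2.48 in normal to 23.3% ± 5.37 in model and 29.4% ± 5.38 in TA livers. Mmp9 stayed a minor part of the pool, with a mean share of 1.19%, 1.20% and 0.647%. Timp1 made up 31.8% ± 5.47 of the inhibitor sum in normal, 55.4% ± 13.6 in model and 37.3% ± 5.92 in TA livers, and Timp2 made up 56.9% ± 4.28, 37.3% ± 13.2 and 53.8% ± 5.80.

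**Figure D4:**
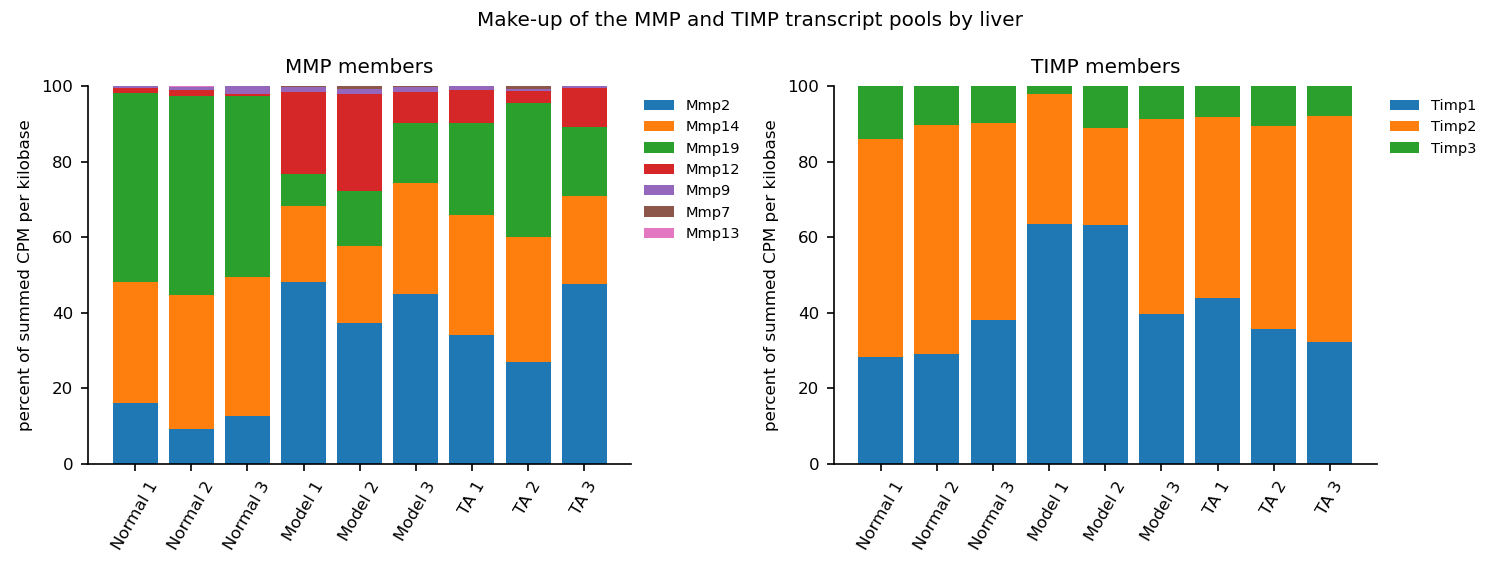
Percent of the summed CPM per kilobase that each gene contributed in each of the 9 livers, for the 7 MMPs (left) and the 3 TIMPs (right). Mmp19 is the largest MMP part in the normal livers, at 47.9% to 52.6%, and Mmp2 the largest in the model livers, at 37.3% to 48.2%.

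The order of mean levels per kilobase was led by Mmp19 (14.6 CPM per kilobase), Timp2 (10.5) and Mmp14 (9.80) in the normal group, by Timp1 (98.6), Mmp2 (58.9) and Timp2 (57.7) in the model group, and by Timp2 (23.7), Mmp2 (19.8) and Mmp14 (17.7) in the TA group. Neighbours at the top of each order overlapped in range, so these ranks are not firm. Ranges did part at the lower end, below Timp3 in each group. Mmp9, Mmp7 and Mmp13 were the scarcest in the model and TA groups, as they were in the normal group, where the range of Mmp9 overlapped with that of Mmp12.

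Other genes of the extracellular proteolytic system are given as counts. Of 16 further MMP and TIMP genes, 11 had a count entry for every library. In Model VS Normal 5 were tested and 2 rose by adjusted p. These were Mmp23, a small MMP with a membrane anchor (1.34 to 12.8 CPM on average, log2 fold change 3.27 ± 0.51, adjusted p = 0.0153), and Mmp8, the neutrophil collagenase (0.978 to 4.75 CPM, 2.29 ± 0.47, adjusted p = 0.0312). Both were lower in TA VS Model at the study's thresholds, by -1.42 and -1.86. The median log2 fold change of the list in Model VS Normal was 0.35.

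Of 18 activators, inhibitors and clearance genes, 15 were tested and 5 rose in Model VS Normal, with a median log2 fold change of 1.95. They include Plat, the tissue plasminogen activator (log2 fold change 4.36 ± 0.69, adjusted p = 0.0159), and Plaur, the urokinase receptor (3.16, adjusted p = 0.0468). Pcolce, which aids procollagen processing, was at 3.62 (adjusted p = 0.0308). Other genes of the list went the other way, though 0 were called lower by adjusted p. Every model library lay below every normal one in 4 of 15, against 2214 of 12730 genes. These were Plg (log2 fold change -0.96), Lrp1 (-0.83), Serpinf2 (-0.82) and Furin (-0.77). In TA VS Model 5 of 15 were lower at the study's thresholds, and in TA VS Normal 4 were higher.

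Of 15 ADAM and ADAMTS proteases, 14 were tested and 5 rose in Model VS Normal, with a median of 1.87. The procollagen N-propeptidase Adamts2 had a log2 fold change of 4.04 ± 0.50 (adjusted p = 0.0104), Adamts15 of 3.95 (0.0287), the leukocyte sheddase Adam8 of 2.94 (0.0227) and Adamts12 of 1.93 (0.0428). In TA VS Model 5 were lower at the study's thresholds. In TA VS Normal 4 were higher, and Adamts2 was the gene called by adjusted p in the unpaired test (log2 fold change 2.77, adjusted p = 0.0218).

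Marker levels of several cell types also differed between the groups. Summed stellate cell and myofibroblast markers were at 395 to 485 CPM in normal, 1350 to 12900 in model and 843 to 1320 in TA livers, and 7 of 11 tested rose in Model VS Normal. Neutrophil markers were at 11.3 to 24.3, 49.4 to 97.0 and 19.9 to 36.0 CPM (5 of 7 rose). Cholangiocyte markers were at 20.7 to 36.0, 139 to 2060 and 39.4 to 62.0 CPM (7 of 8), and mesothelial markers at 0.839 to 2.49, 25 to 82.9 and 4.65 to 12.2 CPM (2 of 2).

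Macrophage markers went both ways. Their sums overlapped, at 427 to 636 CPM in normal, 519 to 3580 in model and 514 to 1000 in TA livers. Of 11 tested in Model VS Normal, 2 rose by adjusted p, Trem2 and Gpnmb, and at the study's thresholds 6 were higher and 2 lower. Marco (log2 fold change -2.17), Clec4f (-1.50), Cd5l (-1.14) and Cd14 (-0.73) had the opposite sign to most members, and in TA VS Model all 4 had positive values, from 0.86 to 2.34.

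Model replicate 1, which was highest in most members, was also highest in most marker sums and lowest in hepatocyte markers. It led the stellate cell, macrophage, neutrophil, cholangiocyte, endothelial, and T and B cell sums, but not the mesothelial or exocrine pancreas sums. Single genes weighed heavily in some of the marker sums. In the model group Spp1 of the cholangiocyte list averaged 640 CPM (SD 1050). Of the stellate cell list, Col1a1 averaged 1640 CPM (SD 2430) and Col3a1 2890 CPM (SD 3480). The hepatocyte sums were at 115000 to 142000 CPM in normal, 26800 to 96400 in model and 90400 to 152000 in TA livers, so that every model liver was below every normal one, though none of the 8 markers was called lower by adjusted p or at the study's thresholds. Endothelial markers were at 187 to 224, 181 to 354 and 220 to 279 CPM (0 of 7 tested were called by adjusted p). At the study's thresholds 2 were higher and 1, Kdr, was lower in model livers (log2 fold change -1.01), with Clec4g at -1.04 and Stab2 at -0.99. T and B cell markers were at 22.2 to 36.1, 44.4 to 108 and 25.7 to 49.4 CPM (0 of 7 by adjusted p, and 1 higher at the study's thresholds). Exocrine pancreas markers stayed between 0.790 and 3.74 CPM, and one of them, Cpa1, had reads in at most 2 libraries. The part of any cell type in the member results was not tested.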

How the data were processed

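The authors trimmed paired-end reads with Trimmomatic and Cutadapt, mapped them with STAR and counted them per gene with HTSeq-count; strand handling is not given in the sources used here. A human genome is named in the study's methods and mm9 in the submitters' processing notes, while the deposited symbols are rat symbols, so how reads were assigned to near-identical genes is uncertain. The deposited values were raw read counts per gene, used for every test, and FPKM from the authors, used to recover gene lengths and as an alternative. The authors also deposited counts divided by DESeq2 size factors, fold changes and p-values of their own comparisons, none of which were used.

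Groups came from the labels. Counts were analysed in R 4.3.3 with edgeR 4.0.16 (TMM, filterByExpr, quasi-likelihood test in its older form, Benjamini-Hochberg adjustment over all genes tested). Each comparison used its 2 groups, and TA VS Normal the genes in both tables. The tests were first tested on simulated data. Alternatives were DESeq2 1.42.0, limma 3.58.1 (voom with sample quality weights), the newer quasi-likelihood form, other scalings and filters, all 9 libraries in 1 fit, a replicate block, and leaving out each library. The replicate numbers come from the labels. Deviations of same-numbered normal and TA libraries correlated at 0.284, 0.466 and 0.555, so the replicate-block fit is also given in the results for TA VS Normal. This choice was made from these same data. The number is a suffix of the sample titles, and the paper states that rats were divided into groups at random. Same-numbered livers are therefore not known to be matched animals.

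The members and lists were chosen with earlier results of these data known. All 10 members were named. From the other protease lists, genes called by adjusted p in Model VS Normal were named, at most 4 per list by fold, except 1 that is not reported here. The collagen ratios were added, and single cell type markers named, after the values were seen. Mmp15, Mmp24, Plg, Lrp1, Serpinf2 and Furin were also named then. Intervals from counts cover counting error only, and the floor of 3 reads was a setting. Names, promoters and neighbours came from RefSeq (GRCr8); all 10 symbols matched. Mmp1, Mmp10, Mmp11, Mmp25, Mmp28, Prss1, Col1a2, Itgam, Pecam1, Pnlip and Ctrb1 were not analysed here.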

Additional observations from a re-analysis of the deposited data

How the results depend on the processing

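Of 360 recomputed member fold changes, 303 kept their direction and their side of the threshold, 13 lost the call, 31 gained one and 13 changed sign. In Model VS Normal, DESeq2 called 7 members by adjusted p, and leaving out 1 library gave 0 to 6. In TA VS Model, DESeq2 called 2 by adjusted p, voom counted 2 at the study's thresholds, and leaving out 1 library gave 1 to 6. In TA VS Normal, the calls by adjusted p were 4 with DESeq2, 1 with voom, 1 with library totals, 2 without a filter on low counts and 4 with the replicate block. All 9 libraries in 1 fit gave 0 by adjusted p and 3 at the study's thresholds, Timp2 being lost. In that fit the quasi-likelihood test gave an adjusted p of 0.245 for Mmp2, 0.238 for Mmp12, 0.673 for Timp1 and 0.73 for Timp2. The changed signs were in Mmp19, Mmp14 and Mmp9. With library totals Mmp19 was at 0.647 (Model VS Normal) and -0.381 (TA VS Model), and with voom Mmp14 was at 0.438 in TA VS Model. Leaving out 1 library, Mmp19 ranged from -0.55 to 0.15, -0.20 to 0.65 and -0.34 to 0.47 in Model VS Normal, TA VS Model and TA VS Normal, Mmp14 from -1.02 to 0.094 in TA VS Model, and Mmp9 from -0.16 to 0.84 in TA VS Normal. Library totals moved the median log2 fold change of all genes from 0.02 to 0.65, from 0 to -0.48 and from -0.01 to 0.18. Without length correction, the log2 ratio of summed MMPs to TIMPs was 1.302 in normal, 0.887 in model and 1.270 in TA livers, and that of Timp1 to Timp3 was 0.252 in normal and 0.833 in TA livers. Without Mmp2 and Timp1 the first ratio was 0.125 in model livers. Without a filter, Mmp7 joined the members at the study's thresholds in Model VS Normal, for 8. The cause of these changes was not tested.

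Genes called by adjusted p over the whole table numbered 1002 for Model VS Normal (DESeq2 2654, voom 3433, library totals 1980, all libraries in 1 fit 1757), 0 in TA VS Model (DESeq2 541, voom 169) and 32 in TA VS Normal (DESeq2 360, voom 126, library totals 56, no filter 76, all libraries in 1 fit 14, replicate block 203). In the other comparisons same-numbered libraries did not all deviate together. Same-numbered libraries correlated at 0.222, -0.056 and -0.052 in Model VS Normal, where the replicate block gave 5 members and 1216 genes, and at 0.227, -0.025 and 0.015 in TA VS Model, where it gave 0. The filter on low counts left Mmp7 and Mmp13 untested.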
